A study of Brassica napus with 74 samples.

Results

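The chalazal proliferating tissue (CPT) was compared between the mature green stage and the heart stage of seed development in Brassica napus (oilseed rape), an allopolyploid that carries an An and a Cn subgenome. The comparison used 6 of the 74 libraries of the series, 3 of the mature green CPT (mgCPT, 28 days after pollination) and 3 of the heart stage CPT (hCPT, 10 days after pollination). The libraries were chosen by their titles and not by any measured value. All plants were of the cultivar Topas, with no transgene and no treatment in either group.

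In the study, maternal and filial subregions of the seed were taken by laser microdissection (LMD), in which a laser guided by microscopy frees chosen cells from thin sections, and RNA-seq was run on the captured cells. Each library was a pool of many sections from several plants, so a value is an average over many seeds. The deposited values are TPM (transcripts of a gene relative to a fixed total per library, corrected for gene length) for 101040 genes. Other maternal subregions of both stages are used below for comparison, namely the chalazal seed coat (CZSC), the inner seed coat (ISC) and the outer seed coat (OSC), with 16 libraries in all.

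The CPT is a maternal tissue at the chalazal end of the seed, between the chalazal endosperm and the chalazal seed coat, where nutrients pass from the mother plant to the filial tissues. It arises from the nucellus, the ovule tissue around the female gametophyte. The study reports that many of its cells are crushed or lost as the seed expands. By 28 days after pollination the layers that remain have become part of the pigment layer of the seed coat. The heart stage falls in the morphogenesis phase of seed development, whereas the mature green stage falls in the maturation phase, in which storage proteins, oil bodies and late embryogenesis proteins accumulate, above all in the embryo.

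The labels do not agree for 1 library. The title of mgCPT1 names the mature green CPT, but its tissue entry reads endosperm. The title was used, and results are also given without this library. The tissue entries of 2 mature green cotyledon libraries used below also differ from their titles. The tissue was checked with markers in all 6 libraries. CEP1, a cysteine endopeptidase that marks the CPT and the ISC of the morphogenesis phase, was high in hCPT and low in mgCPT, so these markers did not identify the mature green tissue. LEC1, a transcription factor gene of the embryo and the endosperm, was low in most libraries. The An copy BnaA07g10770D had 2.86, 1.21 and 0.124 TPM in mgCPT1 to 3, against 0.806, 0.506 and 14.8 TPM in hCPT1 to 3. The Cn copy BnaC07g14150D had 2.29, 0.843 and 0.672 TPM in mgCPT1 to 3, against 1.44, 0.001 and 13.2 TPM in hCPT1 to 3. The highest value of both copies was that of hCPT3, and the groups overlapped for both.

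Libraries of the same group differed in how many genes were detected. In mgCPT1 to 3, 91094, 74831 and 34389 genes lay above 1 TPM, against 39148, 47155 and 84887 genes in hCPT1 to 3 (exact permutation test, two-sided, p = 0.8, where 3 against 3 libraries cannot go below 0.1). Above 5 TPM the groups did not overlap as deposited, with 8498 ± 2394 genes in mgCPT and 18840 ± 4308 genes in hCPT (SD, n = 3 each, exact permutation p = 0.1). This depended on the scaling. Each library was also rescaled without the genes that averaged at least 1000 TPM over the series. The groups then overlapped, with 22954, 26684 and 18652 genes in mgCPT1 to 3, against 23159, 24354 and 35469 genes in hCPT1 to 3. The median gene had 2.32, 1.40 and 0.564 TPM in mgCPT1 to 3, against 0.530, 0.862 and 2.57 TPM in hCPT1 to 3. A value of a few TPM in mgCPT1, mgCPT2 or hCPT3 therefore lies within the bulk of all genes of that library. Reads recovered from the steps between low values, over 88650 genes, ranged between 1670451 and 5252426 in mgCPT and between 2824719 and 4812798 in hCPT, a lower limit of the depth because not all genes were recovered. On the gene of median length, 1 read was worth 0.0437 to 0.196 TPM in mgCPT and 0.0774 to 0.146 TPM in hCPT. On the log2 scale the correlation across genes was 0.53 to 0.77 between mgCPT libraries, 0.77 to 0.87 between hCPT libraries and 0.27 to 0.68 between the groups. Genes are not independent replicates, and mgCPT3 correlated with the hCPT libraries at 0.61 to 0.68.

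**Figure D1:**
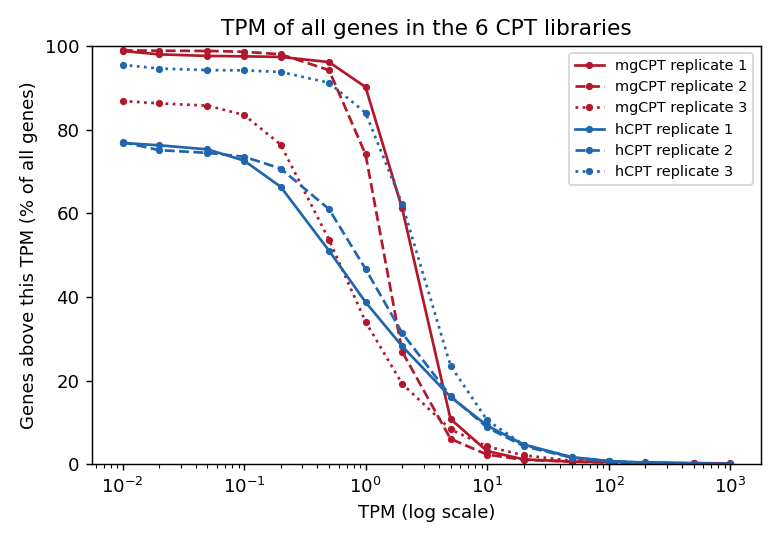
Share of all genes above each TPM (vertical axis, percent) against that TPM on a logarithmic axis, 1 line for each of the 3 mgCPT and 3 hCPT libraries. The 25th percentile was 1.60, 0.985 and 0.218 TPM in mgCPT1 to 3 and 0.0555, 0.0218 and 1.45 TPM in hCPT1 to 3, so the curves of mgCPT1, mgCPT2 and hCPT3 stay high up to about 1 TPM and those of the other libraries lie below them.

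The first question was which genes differed between the mature green and the heart stage CPT. Far more genes were lower than higher in mgCPT. Of 88481 genes whose mean reached 1 TPM in either group, 9727 were lower in mgCPT (11.0% of the genes tested) and 1148 were higher (1.30%) by limma with Benjamini-Hochberg adjustment over all genes tested at a limit of 0.05. Of these 10875 genes, 10818 also had groups that did not overlap. Among all genes tested the groups did not overlap for 20.6% with lower and for 4.37% with higher values in mgCPT. The median gene changed by 0.052 on the log2(TPM + 1) scale, on which all changes are given and on which the change of a gene with low values is understated. A change of at least 2 on this scale was found for 5037 of the lower and 926 of the higher genes, and a change of at least 4 for 485 and 207 genes. In bulk samples, fewer cells of a type and less RNA per cell cannot be told apart. Nothing in the labels says whether the replicates came from separate plants, so the p-values measure the spread between these pools.

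The balance of the calls depended on the scaling. The higher genes made up 10.6% of the calls with TPM as deposited. They made up 39.8% after quantile normalization, with 1248 genes higher and 1888 lower, of which 989 and 1836 were also called as deposited. The mean over all 74 libraries of the series reached 1000 TPM for 56 genes. When these were taken out and each library was rescaled, 1414 genes were higher and 5991 were lower, and the median gene changed by 0.33. Single libraries also moved the counts. Without mgCPT1, 821 genes were higher and 8742 were lower, of which 759 and 8301 were shared with the comparison of all 6 libraries. Without mgCPT3 the counts were 3399 higher and 10419 lower, and without hCPT3 they were 2349 and 7950. They were 718 and 6032 without hCPT1 and 694 and 6392 without hCPT2.

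**Figure D2:**
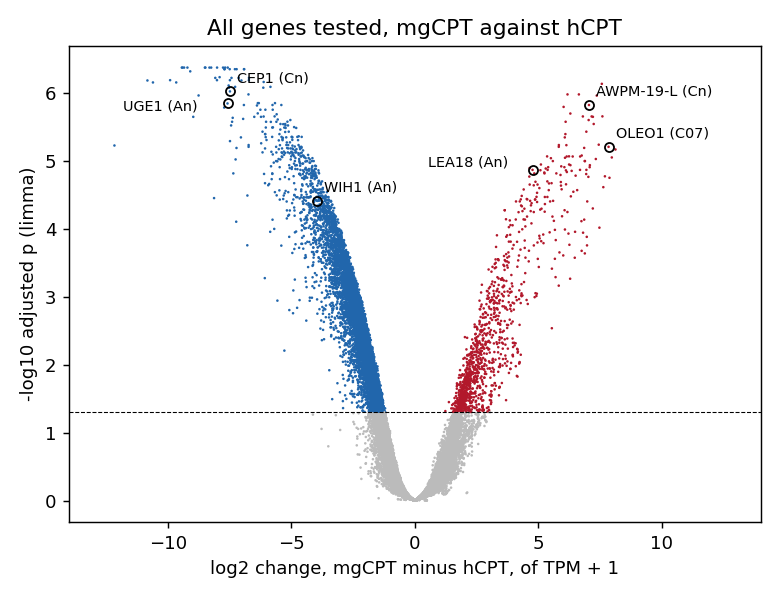
Log2 change of each gene tested, mgCPT over hCPT (horizontal axis), against the negative log10 of the adjusted p from limma (vertical axis), with genes past the limit of 0.05 coloured by direction, the limit drawn as a dashed line and a few genes named. The 9727 lower genes lie to the left and reach a change of -12.16, whereas the 1148 higher genes lie to the right and reach 8.13.

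As a share of each library, the genes that were lower in mgCPT held 3.16%, 3.07% and 5.75% of the TPM in mgCPT1 to 3, against 38.5%, 41.1% and 37.4% in hCPT1 to 3. The genes that were higher held 20.2%, 12.3% and 23.6% in mgCPT1 to 3, against 0.418%, 0.563% and 0.923% in hCPT1 to 3. These shares follow from how the genes were chosen and are given as a description of how much of the transcript pool they covered.

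The largest falls were of genes with no name in the sources used here. The 10 genes that fell most changed by -12.16 to -9.09, and they had 968.63 to 27835 TPM in single hCPT libraries but at most 18.8 TPM in any mgCPT library. BnaA09g33020D had 0.355, 18.8 and 2.39 TPM in mgCPT1 to 3, against 16190, 27835 and 19499 TPM in hCPT1 to 3 (change -12.16 ± 0.97, SE, limma adjusted p = 6.0e-06). BnaC08g23830D had 1.27, 6.64 and 1.72 TPM in mgCPT1 to 3, against 4981, 9227 and 6175 TPM in hCPT1 to 3 (change -10.83 ± 0.65). Neither gene had overlapping groups, and every mgCPT library was far below every hCPT library. All 10 genes were also abundant in the globular stage CPT (gCPT, 7 days after pollination), at group means of 1253 to 19170 TPM. Together they held 3.67%, 5.42% and 4.49% of the TPM of hCPT1 to 3.

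UGE1 fell most among genes named by the study. It encodes a UDP-glucose 4-epimerase, an enzyme that interconverts UDP-glucose and UDP-galactose, a sugar donor for cell wall polysaccharides. The An copy BnaA08g24600D had 5.05, 4.37 and 8.18 TPM in mgCPT1 to 3, against 939.5, 1503 and 1490.3 TPM in hCPT1 to 3 (change -7.58 ± 0.50, limma adjusted p = 1.4e-06). The Cn copy BnaC08g15730D had 4.55, 5.96 and 18.1 TPM in mgCPT1 to 3, against 1095, 1682 and 1328 TPM in hCPT1 to 3 (change -7.22 ± 0.59, limma adjusted p = 6.5e-06). The groups did not overlap for either copy. In gCPT the copies averaged 2563 and 2800.0 TPM, above both later stages.

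CEP1 encodes a papain-type cysteine endopeptidase that in Arabidopsis takes part in programmed cell death of the anther tapetum. BnaC03g27700D had 3.37, 1.93 and 5.91 TPM in mgCPT1 to 3, against 694, 1042 and 700.4 TPM in hCPT1 to 3 (change -7.49 ± 0.47, limma adjusted p = 9.6e-07). BnaA03g23380D had 6.14, 6.69 and 13 TPM in mgCPT1 to 3, against 1566, 1969 and 1297 TPM in hCPT1 to 3 (change -7.44 ± 0.54, limma adjusted p = 3.0e-06). Both copies fell with no overlap between the groups. In gCPT the copies averaged 190.3 and 364 TPM, so CEP1, unlike UGE1, was at its highest CPT level at the heart stage. CEP1 and UGE1 kept their calls in all 16 alternative settings that were run.

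The WINDHOSE genes WIH1 and WIH2 encode small peptides that in Arabidopsis are needed for megaspore formation in the nucellus. WIH1 BnaA06g24930D had 5.75, 2.93 and 7.43 TPM in mgCPT1 to 3, against 91.2, 75.6 and 118 TPM in hCPT1 to 3 (change -3.96 ± 0.41, limma adjusted p = 3.9e-05). The other WIH1 copy, BnaC03g23330D, had at most 1.42 TPM in any of the 6 libraries and was not tested. WIH2 BnaA04g23910D had 6.2, 14.1 and 26.5 TPM in mgCPT1 to 3, against 164, 118 and 96.5 TPM in hCPT1 to 3 (change -3.11 ± 0.51, limma adjusted p = 1.0e-03). This copy was not past the limit after quantile normalization (change -2.11). The second WIH2 copy, BnaC04g47670D, did not pass the test (change -1.21 ± 0.45, limma adjusted p = 0.12), although its highest mgCPT value of 18.2 TPM lay below its lowest hCPT value of 19.5 TPM. It passed without mgCPT3 (-1.53) and changed by 0.047 after quantile normalization. So 2 of the 3 tested WINDHOSE copies fell, beside 11.0% of all genes tested, with a median change of -3.11 over the 3.

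SWEET1 encodes a membrane transporter that moves sugars in either direction. BnaA06g15180D had 12.2, 32.3 and 63.8 TPM in mgCPT1 to 3, against 553, 771 and 655 TPM in hCPT1 to 3 (change -4.42 ± 0.66, limma adjusted p = 5.3e-04). BnaC05g16660D had 8.08, 21.0 and 32.7 TPM in mgCPT1 to 3, against 121, 158 and 104 TPM in hCPT1 to 3 (change -2.75 ± 0.51, limma adjusted p = 2.5e-03). The groups did not overlap for this pair, while the other SWEET1 pair changed by -0.10 and 0.070 and did not pass the test. Rescaling without the genes of at least 1000 TPM ended the calls of both copies (changes of -4.10 and -2.43), and quantile normalization ended that of BnaC05g16660D (-1.71).

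NFD2, a gene named in Arabidopsis for a defect in the fusion of nuclei in the female gametophyte, also fell. BnaC05g21090D had 5.15, 12.6 and 30.5 TPM in mgCPT1 to 3, against 153, 80.2 and 99.0 TPM in hCPT1 to 3 (change -2.96 ± 0.55, limma adjusted p = 2.5e-03). BnaA09g28140D had 4.28, 1.68 and 3.64 TPM in mgCPT1 to 3, against 14.9, 9.90 and 13.6 TPM in hCPT1 to 3 (change -1.76 ± 0.41, limma adjusted p = 0.011). The groups did not overlap for either copy. Both calls were lost after quantile normalization (changes of -1.94 and -0.98), that of BnaC05g21090D also after rescaling without the genes of at least 1000 TPM (-2.66), and that of BnaA09g28140D also without hCPT1 (-1.65).

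The genes that rose were led by seed storage protein, oil body and late embryogenesis genes. The study displayed 89 genes in its heat maps, of which 88 were tested here, and it chose them on these samples, so their counts are not independent evidence of a direction. Of these genes 36 were higher and 11 were lower in mgCPT, beside 1.30% higher and 11.0% lower among all genes tested. The higher ones were 16 of 18 storage protein genes, 13 of 13 oil body genes, 6 of 6 late embryogenesis genes and 1 of 8 lipid synthesis genes. The median change was 6.38 for storage protein genes, 7.08 for oil body genes and 5.49 for late embryogenesis genes, against 0.052 for all genes. No gene of the first 3 groups was lower, and 33 to 35 of their 37 genes were called higher in every alternative setting that was run, with 35 when mgCPT1 was left out.

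Storage proteins of B. napus are napins (2S albumins, the SESA genes) and cruciferins (12S globulins, the CRU genes). SESA3 BnaC07g40770D had 2112, 4745 and 9300.2 TPM in mgCPT1 to 3, against 15.4, 42.5 and 22.2 TPM in hCPT1 to 3 (change 7.48 ± 0.88, limma adjusted p = 9.7e-05). CRU1 BnaC07g48660D had 721, 816 and 1695 TPM in mgCPT1 to 3, against 2.13, 4.49 and 7.02 TPM in hCPT1 to 3 (change 7.60 ± 0.53, limma adjusted p = 2.2e-06). The groups were far apart for both genes, and mgCPT3 had the highest value of each. The 2 CRU3 copies rose by 6.16 and 5.92. SESA4 BnaA08g14120D rose least, with 3.33, 7.86 and 3.91 TPM in mgCPT1 to 3, against 0.00262, 0.499 and 0.916 TPM in hCPT1 to 3 (change 2.01 ± 0.50, limma adjusted p = 0.017). Its call was lost without mgCPT2 (1.70), without hCPT1 (1.76) and after quantile normalization (2.27). The 2 copies of CRB, which the study lists as a cruciferin gene, did not pass the test. They are the 2 genes of the storage protein group that were not called, and whether CRB is a cruciferin was not checked here. CRB BnaA06g05390D had 1.74, 0.948 and 1.05 TPM in mgCPT1 to 3, against 3.28, 2.66 and 5.43 TPM in hCPT1 to 3, a change of -1.07. The counting used uniquely mapped reads, so the values of near-identical copies within the napin, cruciferin and oleosin families are uncertain.

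Oil bodies are coated by oleosins and by caleosins such as PXG1, a peroxygenase. OLEO1 BnaC07g39370D had 646, 1150.0 and 3190.2 TPM in mgCPT1 to 3, against 2.25, 7.12 and 6.39 TPM in hCPT1 to 3 (change 7.85 ± 0.63, limma adjusted p = 6.3e-06). The OLEO1 copy BnaA08g14540D rose by 7.70 ± 0.72, and the 2 OLEO4 copies rose by 7.45 and 7.03. PXG1 BnaC01g18950D had 221, 263 and 989 TPM in mgCPT1 to 3, against 1.88, 1.59 and 1.24 TPM in hCPT1 to 3 (change 7.25 ± 0.53, limma adjusted p = 2.9e-06). All 13 oil body genes changed by 6.22 to 7.85, a narrower range than that of the storage protein genes, and none had overlapping groups.

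The late embryogenesis group held copies of LEA18, ATS3 and AWPM-19-L. LEA18 belongs to the late embryogenesis abundant proteins, ATS3 is an embryo-specific gene of Arabidopsis and AWPM-19-like proteins are plasma membrane proteins induced by abscisic acid in wheat. AWPM-19-L BnaC05g02680D had 283, 240.1 and 719 TPM in mgCPT1 to 3, against 1.81, 1.14 and 2.51 TPM in hCPT1 to 3 (change 7.05 ± 0.47, limma adjusted p = 1.5e-06). ATS3 BnaA10g23630D had 64.7, 190.4 and 313 TPM in mgCPT1 to 3, against 0.521, 1.47 and 2.56 TPM in hCPT1 to 3 (change 6.06 ± 0.54, limma adjusted p = 1.3e-05). LEA18 BnaA05g08680D had 102, 75.4 and 83.1 TPM in mgCPT1 to 3, against 0.751, 2.82 and 3.90 TPM in hCPT1 to 3 (change 4.77 ± 0.43, limma adjusted p = 1.4e-05). The groups did not overlap for these genes.

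**Figure D3:**
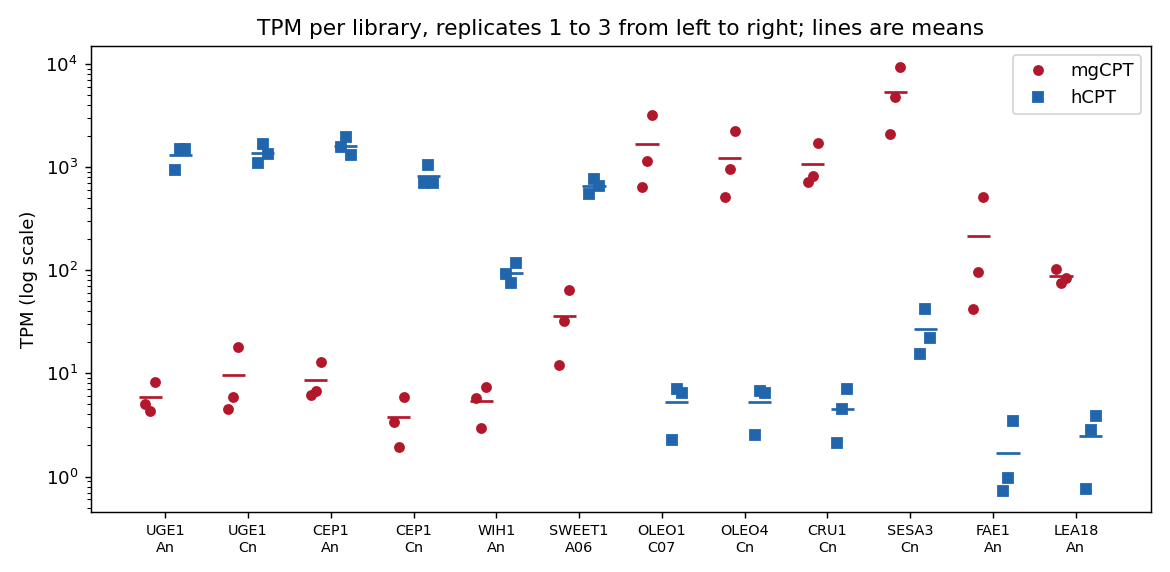
TPM of selected genes on a logarithmic axis, mgCPT to the left of hCPT for each gene, with a point for each library and a line for each mean. UGE1, CEP1, WIH1 and SWEET1 lie lower in mgCPT than in hCPT, and the storage protein, oil body, late embryogenesis and FAE1 genes lie higher, with no overlap between the groups in the genes shown.

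As a share of the library, the storage protein and oil body genes held 1.73%, 2.83% and 8.75% of the TPM in mgCPT1 to 3, against 0.0168%, 0.0393% and 0.0289% in hCPT1 to 3. The means were 4.44 ± 3.78% in mgCPT and 0.0283 ± 0.0113% in hCPT (SD, n = 3 each, exact permutation test, two-sided, p = 0.1, the smallest possible). The share was highest in mgCPT3, and the lowest mgCPT library stood above every hCPT library. These genes are also embryo maturation markers, and they were abundant in every mature green subregion. Their share was 2.31% to 6.79% in the mature green cotyledon (mgCOT), 3.52% to 6.34% in the mature green embryonic root (mgROOT), 0.499% to 5.30% in mgCZSC, 2.71% to 4.15% in mgISC and 2.84% to 7.79% in mgOSC. The part of RNA from the embryo in the mgCPT values was not tested.

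The proportions among these genes differed between mgCPT and the embryo, a measure chosen after its values were seen. The summed TPM of storage protein genes was 1.78 to 2.10 times that of oil body genes in mgCPT, against 11.6 to 12.6 times in mgCOT and 18 to 20.1 times in mgROOT. The ratio was 0.900 to 0.945 in mgISC, 3.73 to 4.31 in mgOSC and 1.00 to 3.99 in mgCZSC. In hCPT, where the sums were 131 to 299.5 TPM for storage protein and 37 to 93.5 TPM for oil body genes, it was 2.83 to 3.54.

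**Figure D4:**
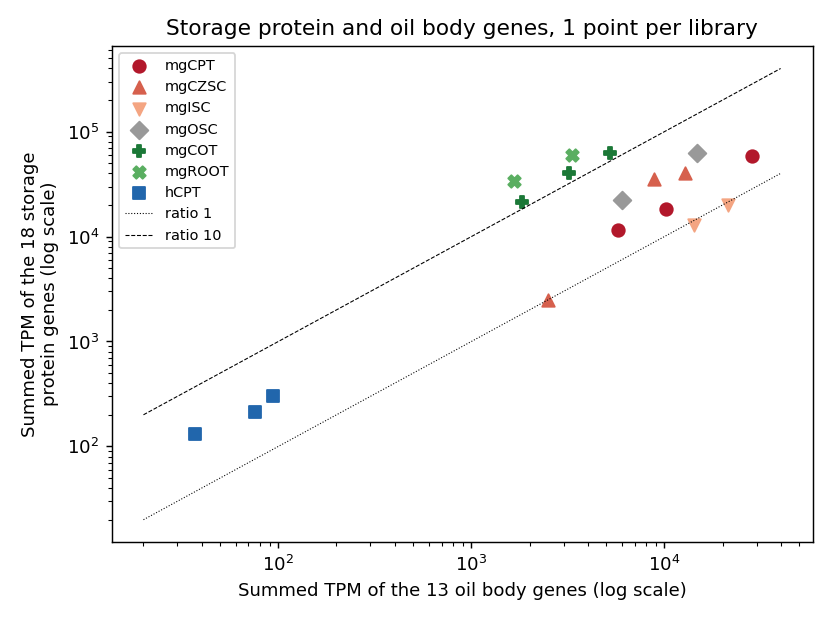
Summed TPM of storage protein genes (vertical axis) against that of oil body genes (horizontal axis) in each library, both axes logarithmic, with symbols for the subregions and lines of equal ratio. The 3 mgCPT libraries hold 11539 to 59233 TPM of storage protein and 5750.2 to 28275 TPM of oil body transcripts, and the mgCOT and mgROOT libraries have fewer oil body transcripts for as many storage protein transcripts.

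Among the lipid synthesis genes, FAE1, the elongase that makes erucic acid, was the gene called. BnaA08g11130D had 42.3, 96.1 and 509 TPM in mgCPT1 to 3, against 0.730, 0.963 and 3.42 TPM in hCPT1 to 3 (change 5.71 ± 0.71, limma adjusted p = 1.5e-04). The FAE1 copy BnaC03g46140D changed by 0.27 and did not pass the test. Outside the study list, BnaC03g65980D is annotated with fatty acid elongase activity and was picked after its values were seen. It had 49.4, 101 and 515 TPM in mgCPT1 to 3, against 1.09, 1.17 and 3.38 TPM in hCPT1 to 3 (change 5.67 ± 0.67, limma adjusted p = 1.0e-04). FAB2, a stearoyl-ACP desaturase, changed by 1.75 ± 0.59 (BnaC03g24420D, limma adjusted p = 0.078) and by 0.58 ± 0.66 (BnaA03g20420D, limma adjusted p = 0.75). FAB2 BnaC03g24420D had 10.1, 39.6 and 84.3 TPM in mgCPT1 to 3, against 11.0, 7.21 and 9.33 TPM in hCPT1 to 3, so that mgCPT1 alone overlapped with hCPT. It was past the limit in 5 of 16 alternatives, among them those without mgCPT1 (2.55) and after quantile normalization (2.88). WRI1, a transcription factor of oil synthesis, changed by 0.44 and 0.42 and did not pass the test.

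The other groups of the study list are read beside the 12.3% of all genes tested that were called in either direction. Of 16 cell wall genes 2 were called, the UGE1 copies, near that share, with a median change of -0.032 for the group. Of 6 sugar and starch genes the SWEET1 pair named above was called, with a median change of -0.48. Of 8 further genes 3 were lower, among them both NFD2 copies, with a median change of -0.99. None of the 6 genes linked to lipid homeostasis (median change 0.47) and neither ASPG1 aspartic protease copy was called. Of 45 homoeologous pairs of these genes, 44 had both copies tested, and both copies were called in the same direction in 22 pairs, 18 higher and 4 lower. In 3 pairs 1 copy was called, in 19 pairs neither was, and in no pair were the copies called in opposite directions. The same count over all homoeologous pairs was not made, and the study chose these genes on these samples.

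Genes that the study annotated with Gene Ontology (GO) terms were grouped into 21 lists of 8 to 116 genes, with 573 genes in all. Of the 511 tested, 7 were higher and 64 were lower in mgCPT, near the shares of 1.30% and 11.0% among all genes tested. After quantile normalization 10 were higher and 10 were lower, and without mgCPT1 6 were higher and 55 were lower of 436 tested. The annotation covered 1009 of the 10875 called genes.

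The largest number of falls in a small list was among cysteine and aspartic endopeptidases. Of 15 tested genes 8 were lower, beside 11.0% of all genes tested, and none was higher, with a median change of -1.45. The list holds the CEP1 copies. BnaC08g33220D, annotated with vacuolar protein processing and cysteine endopeptidase activity, had 1.67, 2.44 and 6.98 TPM in mgCPT1 to 3, against 114, 152 and 43.7 TPM in hCPT1 to 3 (change -4.46 ± 0.53, limma adjusted p = 1.0e-04). Its mean in gCPT was 1.75 TPM, so within the CPT it was high at the heart stage and low before and after. Of 19 plant-type vacuole genes 6 were lower, beside the same 11.0% of all genes, and the median change was -0.55.

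The lists for division and growth are read beside the 11.0% of all genes that were lower. Of 31 mitotic nuclear division genes 7 were lower and none higher, with a median change of -0.13, and BnaC03g74810D fell by 3.01 on the log2 scale. It had 1.23, 0.985 and 1.61 TPM in mgCPT1 to 3, against 17.3, 18.4 and 15.9 TPM in hCPT1 to 3, with no overlap. DNA replication genes were lower in 2 of 15 cases, ribosome genes in 3 of 23, photosynthesis genes in 2 of 16 and auxin response genes in 8 of 83, with median changes of -0.21, -0.42, -0.46 and 0.40. These shares are near that of all genes. Of 10 seed coat development genes 3 were lower, with a median change of -0.96. BnaA08g26320D, annotated with auxin response and seed coat development, had 2.68, 2.32 and 2.81 TPM in mgCPT1 to 3, against 34.5, 34.2 and 37.4 TPM in hCPT1 to 3 (change -3.34 ± 0.35, limma adjusted p = 4.4e-05).

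The GO lists for maturation and transport were mixed, beside 1.30% higher and 11.0% lower among all genes tested. Of 9 nutrient reservoir genes 2 were higher and 2 were lower, with a median change of -0.17. With 2 genes higher, this list cannot hold the 16 storage protein genes called higher above, so it does not describe them. BnaC08g43570D had 226, 57.4 and 1143 TPM in mgCPT1 to 3, against 1.20, 1.51 and 2.78 TPM in hCPT1 to 3 (change 6.49 ± 0.78, limma adjusted p = 1.1e-04), and BnaA09g50780D rose by 6.07 ± 0.66. Of 8 seed maturation genes 2 were higher and 2 were lower, with a median change of 0.063. The lower ones are also sucrose transport genes, the pair BnaA06g16330D and BnaC08g20440D. BnaA06g16330D had 12.9, 25.7 and 104 TPM in mgCPT1 to 3, against 348, 365 and 107 TPM in hCPT1 to 3 (change -2.82 ± 0.73, limma adjusted p = 0.020). The mgCPT3 and hCPT3 values lay close together, and the call kept in 9 of 16 alternatives for this gene and in 8 of 16 for BnaC08g20440D, whose groups overlapped. Without mgCPT1, mgCPT2, hCPT1 or hCPT2 the change of BnaA06g16330D was -2.18 to -2.65 and not past the limit. In gCPT the means of the pair were 3.30 and 1.17 TPM.

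The hormone, wall and transport lists are given beside the same 11.0% of all genes. Response to abscisic acid had 2 higher and 6 lower genes of 108, response to water deprivation 2 and 11 of 72, and seed dormancy 0 and 1 of 10, with median changes of -0.053, 0.024 and -0.53. Gibberellin biosynthesis (24 genes), cell wall loosening (14) and secondary cell wall biogenesis (23) had no call and median changes of 0.24, 0.30 and 0.15. Lignin biosynthesis had 2 lower genes of 27, flavonoid and anthocyanin biosynthesis 3 of 19, amino acid transport 2 of 23 and sucrose transport 2 of 10, all with none higher. Their median changes were 0.21, 0.27, 0.21 and 0.24. Suberin biosynthesis had 1 higher gene of 7 and a median change of 0.57.

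Further called pairs with an annotation were picked out after their values were seen, because both copies moved alike. BnaA07g09330D and BnaC07g12500D, annotated as endoribonucleases, fell by 6.12 and 5.51 on the log2 scale. BnaA07g09330D had 2.79, 1.72 and 1.95 TPM in mgCPT1 to 3, against 277, 295 and 124 TPM in hCPT1 to 3, and its gCPT mean was 4.76 TPM. BnaA03g55150D and BnaC03g01960D, annotated as inhibitors of cysteine endopeptidases, fell by 5.26 and 4.43. BnaA05g16360D and BnaC05g28950D, annotated with xyloglucan, a wall polysaccharide, fell by 5.25 and 4.56, and BnaA03g43390D and BnaC07g34860D, annotated with acetylornithine deacetylase activity, by 5.33 and 4.51. Among the genes that rose, BnaA03g55570D and BnaC03g02840D, annotated with jasmonic acid, rose by 5.04 and 4.62. The groups did not overlap for any of these genes.

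BnaA02g17520D and BnaC02g23400D, a pair annotated to the cell wall or the extracellular region and also picked after their values were seen, rose as much as the oleosins. BnaA02g17520D had 729, 576 and 1076 TPM in mgCPT1 to 3, against 1.81, 4.64 and 3.14 TPM in hCPT1 to 3 (change 7.57 ± 0.46, limma adjusted p = 7.4e-07). BnaC02g23400D rose by 7.37 ± 0.47. The summed TPM of the pair was 1173 to 1980 in mgCPT, 788.6 to 1333 in mgOSC, 845.8 to 3222 in mgCZSC and 3494 to 4146 in mgISC, but 0.902 to 4.74 in mgCOT and 0.435 to 0.710 in mgROOT. Every maternal library of the mature green seed was above every embryo library.

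The 10 genes that rose most changed by 7.45 to 8.13, of which 5 were storage protein or oil body genes of the study list and 4 had no name. The first of these was BnaA07g21570D, with 932, 1258 and 4809 TPM in mgCPT1 to 3, against 2.94, 9.21 and 5.44 TPM in hCPT1 to 3 (change 8.13 ± 0.67, limma adjusted p = 6.9e-06). Together the 10 genes held 0.921%, 1.65% and 4.16% of the TPM in mgCPT1 to 3.

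The most abundant genes of both groups were the same 5 genes of chromosome C09, which have no name in the sources used here. They changed by 0.40 to 0.49 with standard errors of 13.6 to 30.1 on the log2 scale in limma. These errors include a variance that limma fits to the mean level, and for BnaC09g16500D they are far above the spread of its values. The test therefore says nothing of these genes. The first, BnaC09g16500D, had 41972, 122830 and 116090 TPM in mgCPT1 to 3, against 70333, 76536 and 46128 TPM in hCPT1 to 3, with overlapping groups. Of the 56 genes that averaged at least 1000 TPM over all 74 libraries, 26 were on C09. These 56 genes held 30.0%, 59.6% and 58.2% of the TPM in mgCPT1 to 3, against 41.7%, 40.7% and 28.8% in hCPT1 to 3 (exact permutation test, two-sided, p = 0.3). Since TPM sums to a fixed total, a larger share of these genes leaves less for all others.

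The Cn subgenome held a larger share of the TPM in mgCPT than in hCPT. Its share was 73.7%, 81.9% and 74.5% in mgCPT1 to 3, against 67.4%, 66.9% and 63.2% in hCPT1 to 3, with means of 76.7 ± 4.52% and 65.8 ± 2.32% (SD, n = 3 each) and a difference of 10.8 percentage points (exact permutation test, two-sided, p = 0.1, the smallest possible). The groups did not overlap. The 56 genes that averaged at least 1000 TPM over the series were then left out. The share was then 66.2%, 61.6% and 49.6% in mgCPT1 to 3, against 52.7%, 53.5% and 54.4% in hCPT1 to 3, a difference of 5.59 points with overlapping groups (exact permutation p = 0.4). With the 56 genes kept in, the difference without mgCPT1 was 12.3 points.

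The second question was which changes of the CPT differed from those of the other maternal subregions over the same stages. The change of the CPT was set against the mean change of the CZSC, ISC and OSC in a limma fit over 22 libraries. Of 97871 genes tested, 1354 changed downwards in the CPT relative to the others (1.38%) and 518 upwards (0.529%), together 1.91%. This comparison uses the same 6 CPT libraries, so it is not a second test of the changes above. In the 1354 genes the median change was -3.28 in the CPT, against -0.11 in the CZSC, -1.19 in the ISC and 0.18 in the OSC. In the 518 genes it was 0.35 in the CPT, against -0.80 in the CZSC, -1.84 in the ISC and -3.39 in the OSC. These medians describe genes chosen by this test. Without hCPT2 the counts were 189 upwards and 738 downwards, without mgCPT2 343 and 811, without mgCPT1 267 and 982, and without hCPT1 300 and 962. The mgCZSC column without a replicate number is not a copy of a numbered column. It had 60543 genes above 1 TPM, against 44915 in mgCZSC1 and 52895 in mgCZSC3. The labels do not say whether it came from a numbered sample, which would leave this subregion with fewer samples than libraries.

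UGE1, WIH1 and the 10 genes that fell most differed from the mean of the other 3 subregions. The test is against that mean, and 2 of the 10 genes fell by as much or more in the ISC as in the CPT. BnaA05g18870D changed by -9.21 in the CPT and -11.51 in the ISC, and BnaA09g19380D by -9.44 in the CPT and -9.67 in the ISC. UGE1 BnaA08g24600D changed by -7.58 in the CPT, against -1.23 in the CZSC, -5.96 in the ISC and -1.74 in the OSC, a difference of -4.61 ± 0.74 (SE, limma adjusted p = 7.5e-04). WIH1 BnaA06g24930D changed by -3.96 in the CPT, against 0.16 in the CZSC, 0.84 in the ISC and -1.84 in the OSC, a difference of -3.68 ± 0.62 (limma adjusted p = 1.2e-03). The endopeptidase BnaC08g33220D changed by -4.46 in the CPT, against 0.72 in the CZSC, -0.80 in the ISC and 3.49 in the OSC, a difference of -5.60 ± 0.76 (limma adjusted p = 1.1e-04). BnaC08g33220D is 1 of 4 genes with such a downward call in the endopeptidase list of 16 genes, beside 1.38% of all genes tested.

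CEP1 and the SWEET1 pair that fell did not pass the test of the difference. CEP1 BnaC03g27700D changed by -7.49 in the CPT and by -9.43 in the ISC, against -1.58 in the CZSC and -1.88 in the OSC, and the difference from their mean was -3.19 ± 1.08 (limma adjusted p = 0.19). For CEP1 BnaA03g23380D it was -3.16 ± 0.88 (limma adjusted p = 0.068), and for SWEET1 BnaA06g15180D, which changed by -4.42 in the CPT and -7.88 in the ISC, it was -2.47 ± 0.70 (limma adjusted p = 0.075). For SWEET1 BnaC05g16660D it was -1.67 ± 0.66 (limma adjusted p = 0.32). The other SWEET1 pair, with at most 4.23 TPM in any mgCPT or hCPT library, changed by -6.57 and -7.19 in the ISC, and its differences were 2.69 ± 0.66 (BnaA08g21340D, limma adjusted p = 0.032) and 3.15 ± 0.64 (BnaCnng57120D, limma adjusted p = 7.9e-03). The call of BnaA08g21340D held in 3 of 9 alternatives and was lost without mgCPT1 (2.39), mgCPT2 (2.72), hCPT2 (2.16) or hCPT3 (2.56), and that of BnaCnng57120D held in 7 of 9 and was lost without hCPT2 (2.74).

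None of the storage protein, oil body and late embryogenesis genes was called as different in its change from the other maternal subregions. Only 1.91% of all genes tested were called in this test, so the absence of calls does not set these genes apart. It does not show that their changes were equal. The median change of the storage protein genes was 6.38 in the CPT, against 6.73 in the CZSC, 7.26 in the ISC and 9.44 in the OSC. For oil body genes it was 7.08 in the CPT, against 7.23 in the CZSC, 8.31 in the ISC and 8.54 in the OSC. For late embryogenesis genes it was 5.49 in the CPT, against 4.85 in the CZSC, 7.58 in the ISC and 6.78 in the OSC. The medians over all genes were 0.052, -0.41, 0.33 and 0.29 in the same order of subregions.

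The 6 genes that the study links to lipid homeostasis, copies of GGL19, GDSL and EXL3, differed in the other direction. They changed by -0.15 to 0.84 in the CPT, where no mgCPT or hCPT library exceeded 3.54 TPM, -1.45 to -3.46 in the CZSC, -0.32 to 1.06 in the ISC and -6.45 to -6.82 in the OSC, and the differences were 2.62 to 3.88. The ISC was thus also near level, with means of 0.756 to 1.79 TPM in hISC, and the falls were in the OSC and, less so, in the CZSC. The 2 copies of ASPG1, an aspartic protease, differed by 3.51 ± 0.57 (BnaA05g21670D, limma adjusted p = 8.8e-04) and 2.02 ± 0.51 (BnaC05g34710D, limma adjusted p = 0.040), and their changes in the CPT were 0.79 and 0.96.

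**Figure D5:**
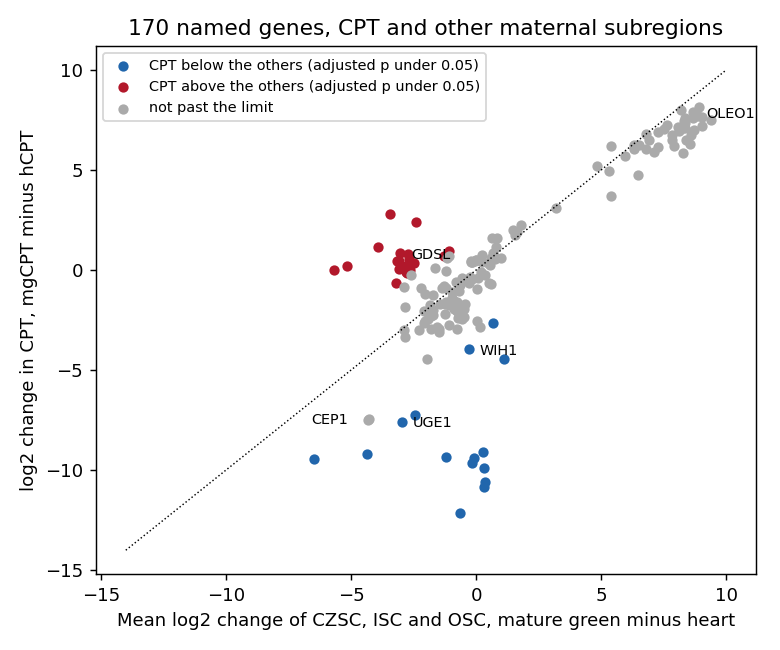
Log2 change of 170 named genes in the CPT (vertical axis) against the mean change of the CZSC, ISC and OSC (horizontal axis), with the diagonal of equal change and colours for the genes past the limit of 0.05 in the test of the difference. The storage protein, oil body and late embryogenesis genes that rose lie near or somewhat below the diagonal, all in grey. UGE1, WIH1 and the genes that fell most lie below it.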

How the data were processed

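Reads were cleaned with fastp by the authors and mapped to the Darmor-bzh genome with HISAT2, and those with a unique position were counted per gene with featureCounts. They deposited TPM values, counts scaled by gene length and library total, in a table of 101040 genes and 74 libraries. No value is 0, because a constant of 0.01 reads per gene was in the counts. The depth of each library was read from the steps between low values, which covers counting error only. Of the values checked, 70.7% to 87.0% came out whole within 0.05 reads, so no count test was run.

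Libraries were grouped by title. The title of 1 mgCZSC column was not found, and it was assigned to the mgCZSC by its name. Genes whose mean reached 1 TPM in either group were tested on log2(TPM + 1) with limma 3.58.1 in R 4.3.3, allowing the variance to depend on the mean, two-sided, with Benjamini-Hochberg adjustment and a limit of 0.05. Subregions were compared in 1 limma fit over the 22 maternal libraries of both stages, and values per library by exact permutation tests. The scripts were tested on simulated data of 88481 genes, with 100 genes changed by 2 and 100 by 4 on the log2 scale. The test recovered 0% of the former and 61% of the latter. Far fewer genes were changed there than were called here. A gene that did not pass the test may still have changed.

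Named genes were the 10 largest rises and the 10 largest falls with groups that did not overlap, the genes of the study's heat maps, up to 3 called genes in each direction and the 2 most abundant members of each GO list, the 5 most abundant genes of each group, and the 5 genes of each sign that differed most from the other subregions. Group names and GO terms came from the study's gene lists, and lists matched by gene name could not be built. Genes marked as picked after their values were seen are exceptions. The members and lists were chosen with earlier results of these data known.

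Alternatives were other pseudocounts (0.1 and 5 TPM), no filter and a filter of 5 TPM, quantile normalization, rescaling without genes of at least 1000 TPM, the replicate number as a block, 1 fit over all libraries, and leaving out each library. After the data were seen, 2 more were added, subtracting the 25th percentile of each library and leaving out mgCPT1 and hCPT3 together.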

Additional observations from a re-analysis of the deposited data

Results flagged for a closer look

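The change of the CPT differed from the mean change of the CZSC, ISC and OSC in 518 genes upwards and 1354 genes downwards by the limma test of the difference itself, with Benjamini-Hochberg adjustment. Among the genes named here, the difference was -11.54 for BnaA09g33020D, -11.13 for BnaC08g23830D and -5.60 for the endopeptidase BnaC08g33220D. It was -4.61 for UGE1 BnaA08g24600D and -4.77 for UGE1 BnaC08g15730D, and -3.68 for WIH1 BnaA06g24930D.

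The upward difference of BnaCnng10870D was 6.26 (limma adjusted p = 2.5e-05). It rose within the CPT, with 2.67, 17.4 and 35.3 TPM in mgCPT1 to 3, against 0.722, 0.836 and 1.25 TPM in hCPT1 to 3 (change 2.81, limma adjusted p = 0.012), and changed by -0.20 in the CZSC, -3.49 in the ISC and -6.68 in the OSC. Its call within the CPT was lost without mgCPT3 (2.09). The other upward differences given here are of genes that did not pass the test within the CPT. They were 5.67 for BnaA02g07120D and 5.35 for BnaC07g42500D. BnaCnng10870D and these genes have no name in the sources used here. The SWEET1 copies BnaA08g21340D and BnaCnng57120D differed by 2.69 and 3.15. BnaC07g42500D had 5.40, 2.99 and 1.54 TPM in mgCPT1 to 3, against 6.94, 0.595 and 2.33 TPM in hCPT1 to 3, and changed by -0.072 in the CZSC, -7.34 in the ISC and -8.01 in the OSC. The GDSL copies differed by 3.88 (BnaAnng05710D) and 3.64 (BnaCnng34700D), the GGL19 copies by 3.24 (BnaA05g36890D) and 3.57 (BnaC05g36950D), the EXL3 copies by 2.62 (BnaA07g21530D) and 2.82 (BnaC06g22050D), and the ASPG1 copies by 3.51 (BnaA05g21670D) and 2.02 (BnaC05g34710D). Of these, the call of ASPG1 BnaC05g34710D held in 2 of 9 alternatives and was lost without mgCPT1 (2.10), mgCPT3 (1.64), hCPT2 (1.58) or hCPT3 (2.10). That of EXL3 BnaC06g22050D was lost without mgCPT1 (2.57) or hCPT2 (2.43). The levels of both copies in the CPT were low at both stages.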

How the results depend on the processing

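The count of genes lower in mgCPT was 1888 after quantile normalization, 5991 after rescaling without genes of at least 1000 TPM, 14817 in 1 fit over all libraries (4984 higher), 14873 with the 25th percentile of each library subtracted and 5439 without mgCPT1 and hCPT3. The last 2 settings were chosen after seeing the data. Leaving out 1 library gave 694 to 3399 higher and 6032 to 10419 lower genes. For the comparison with the other maternal subregions it gave 189 to 688 upwards and 738 to 1356 downwards, and a pseudocount of 0.1 TPM gave 244 and 752. The cause was not tested, apart from the smaller number of libraries when some are left out. The difference in genes above 1 TPM, mgCPT minus hCPT, was 9708 genes with all libraries. It was -10342 above 5 TPM and -2453.3 to 25899 when 1 library was left out, with -2453.3 without mgCPT1. Above 5 TPM the groups overlapped once each library was rescaled without genes of at least 1000 TPM.

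With the replicate number as a block, 1320 genes were higher and 9267 lower (946 and 8689 shared), and 423 and 1205 genes differed from the other subregions. The deviations of same-numbered libraries from their group means correlated at -0.29, -0.07 and -0.37. Deviations from a mean of 3 libraries are tied to each other, so this cannot tell whether the numbers pair the libraries. Fitting weights for the libraries was not run to the end because it could not be fitted.

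Over the alternatives for single named genes, the log2 change in the CPT kept its direction and its side of the limit in 945 cases, lost its call in 50, gained one in 8 and changed sign in 2. The sign changes were WIH2 BnaC04g47670D after quantile normalization (0.047) and FAB2 BnaA03g20420D, whose change was -0.19 without mgCPT3 and up to 1.63 when other libraries were left out. For the difference from the other subregions, 152 cases kept their call and 19 lost it.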
